A study of Mus musculus with 768 samples.

Results

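Cells that expressed at least a pair of the genes Ogn, Ednra, Heyl and Rlbp1 were examined among single cells of mouse cochlear organoids on culture day 7. The cells were chosen by these 4 genes. A retained cell belonged to the state when 2 or more of them reached 20 CPM, its reads scaled to a common total of gene reads in that cell, and to the rest when none did. On day 7, 30, 28, 14, 32 and 48 of 39, 37, 72, 78 and 75 retained cells in cultures 1 to 5 were state cells, 50.5% in all; 95 cells had exactly 1 of the genes and 54 had none.

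The organoids were grown from greater epithelial ridge (GER) cells, sorted by flow cytometry from the cochleae of mice on postnatal day 2. The mice carried Fgfr3-CreERT2, Ai14-tdTomato and Sox2-GFP, so all groups share these alleles. All cultures received EGF, FGF2, IGF1, CHIR99021 (which inhibits GSK3), valproic acid (which inhibits histone deacetylases), 2-phospho-L-ascorbic acid and a TGFβ receptor inhibitor in DMEM/F-12 with N-2 and B-27 supplements and ampicillin. There was no untreated arm. Organoids were harvested on day 1, day 3 or day 7, and dissociated cells were picked by hand, which sets which cells were sampled. The labelled replicate is called a culture here, with 3 cultures on day 1, 3 on day 3 and 5 on day 7. The labels do not say whether replicates came from separate animals, so p-values measure the spread between these samples, which may be partly technical.

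Osteoglycin, encoded by Ogn, is a small leucine-rich proteoglycan of the extracellular matrix. Ednra encodes the endothelin receptor type A, a G protein-coupled receptor. Heyl encodes a basic helix-loop-helix repressor of the Hey family, whose members are targets of Notch signalling, and Rlbp1 encodes the retinaldehyde-binding protein CRALBP, known from Müller glia and the retinal pigment epithelium. The GER is the epithelium on the inner side of the organ of Corti; it secretes much of the tectorial membrane, and in the developing cochlea Notch signalling acts in supporting cell and sensory patterning.

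The 4 genes lie on different chromosomes (GRCm38, GENCODE M21). Ogn spans chromosome 13 from 49608046 to 49624501 on the plus strand, Ednra chromosome 8 from 77663031 to 77724464 on the minus strand, and Heyl chromosome 4 from 123233556 to 123249875 on the plus strand. Rlbp1 lies on chromosome 7, and its coordinates are not given because its identifier has another version in the deposited table. All 4 are annotated as protein-coding. Heyl had no window in the promoter set used, so it was not searched for motifs. Since the genes were used together, the sequences upstream of the other 3 are shown. They are from RefSeq (GRCm38.p6), each 200 bases long, starting 250 bases before the annotated start, and written 5′ to 3′ on the strand of the gene. Capitals mark GGAATG, the core recognised by TEAD factors, or its reverse complement. The windows are chr13:49607765-49607964 for Ogn (plus strand), chr8:77724503-77724702 for Ednra (minus strand) and chr7:79387078-79387277 for Rlbp1 (minus strand).
Ogn: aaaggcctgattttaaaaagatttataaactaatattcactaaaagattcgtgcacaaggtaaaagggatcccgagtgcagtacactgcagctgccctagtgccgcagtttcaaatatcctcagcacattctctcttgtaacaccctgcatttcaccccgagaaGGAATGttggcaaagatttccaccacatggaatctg
Ednra: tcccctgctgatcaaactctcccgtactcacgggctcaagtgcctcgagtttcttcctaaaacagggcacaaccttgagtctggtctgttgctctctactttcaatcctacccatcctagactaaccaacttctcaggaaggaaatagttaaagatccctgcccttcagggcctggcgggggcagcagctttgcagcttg
Rlbp1: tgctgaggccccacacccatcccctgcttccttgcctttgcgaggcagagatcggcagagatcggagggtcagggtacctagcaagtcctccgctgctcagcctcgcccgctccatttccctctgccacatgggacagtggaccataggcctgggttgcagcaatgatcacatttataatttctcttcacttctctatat

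Both strands were searched for 4 motifs. TGGGAA, the core bound by the Notch effector RBPJ, was in none of the 3 windows and in 17.9% of 32851 RefSeq windows of the same length. GGAATG was found once, in the Ogn window, and in 10.7% of all windows. The AP-1 motif TGANTCA was in none of the 3 and in 5.57% of all windows. The E-box CANNTG, which the other motifs can overlap, was in all 3 and in 59% of all windows. These matches are descriptions of the letters in these windows.

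The share of state cells differed widely between the day 7 cultures. State cells made up 76.9% of 39 cells in culture 1 (exact Clopper-Pearson 95% interval 60.7% to 88.9%), 75.7% of 37 cells in culture 2 (58.8% to 88.2%), 19.4% of 72 cells in culture 3 (11.1% to 30.5%), 41% of 78 cells in culture 4 (30.01% to 52.7%) and 64% of 75 cells in culture 5 (52.1% to 74.8%). The mean was 55.4% ± 24.7 (SD, n = 5). The interval of culture 3 overlapped that of culture 4 only. Those of cultures 1, 2 and 5 overlapped one another, and that of culture 4 met that of culture 5 at its upper end. Intervals cover the sampling of cells within a culture only, and leave out differences between cultures. Levels are counts of reads, since the libraries carry no molecular identifiers.

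The other side was thin in the cultures that were rich in state cells. Cells with none of the genes numbered 2, 1, 22, 17 and 12 in cultures 1 to 5. The single such cell of culture 2 had 201525 reads on 2248 genes, with 8.88% of its reads mitochondrial. Results are therefore given both for 5 cultures and for cultures 3 to 5 alone, and also against all other cells of the same culture (0 or 1 of the genes).

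On earlier days the same rule selected few cells. On day 1 it selected 8 cells, or 4.40%, with 0%, 5.81% and 6.98% in cultures 1 to 3. The count of 0 among 53 cells allows a share of up to 5.66%. On day 3 it selected 17 cells, or 7.46%, with 4.71%, 7.14% and 10.96% in cultures 1 to 3. Every day 7 culture lay above every earlier culture, but the genes were chosen on day 7 cells, so no test is given for the difference between days.

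**Figure D1:**
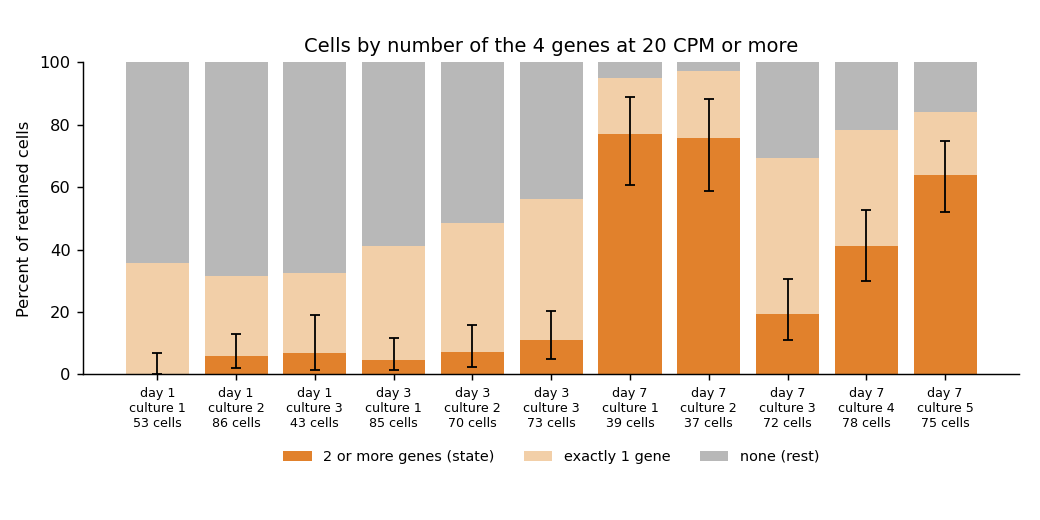
Percent of retained cells (vertical axis) with 2 or more, exactly 1 or none of the 4 genes at 20 CPM or more, for each culture; black bars are exact 95% intervals of the state share. State cells range from 19.4% to 76.9% on day 7 and reach 10.96% at most on days 1 and 3.

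Heyl was the most widespread of the 4 genes on day 7. It reached 20 CPM in 87.2%, 81.1%, 61.1%, 73.1% and 65.3% of the cells of cultures 1 to 5, against 3.77% to 16.3% in the day 1 cultures and 17.6% to 26.03% in those of day 3. The lowest day 7 culture stood above the highest of the earlier days. Rlbp1 was at 46.2%, 62.2%, 11.1%, 29.5% and 36% in day 7 cultures 1 to 5, and between 3.77% and 17.8% in the earlier ones, so that culture 3 overlapped them.

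Ogn reached 20 CPM in 35.9%, 32.4%, 18.1%, 17.9% and 58.7% of day 7 cells in cultures 1 to 5. The earlier cultures, at 11.6% to 28.3%, overlapped those of day 7. Ednra was at 46.2% and 40.5% in cultures 1 and 2, at 0%, 11.5% and 10.7% in cultures 3 to 5, and at most at 2.74% on days 1 and 3. In culture 3 no cell of 72 reached the threshold, which allows a share of up to 4.17%. The makeup of the state thus differed between cultures. Ednra was frequent in cultures 1 and 2 alone, Ogn was most frequent in culture 5, and Heyl was frequent in all 5.

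**Figure D2:**
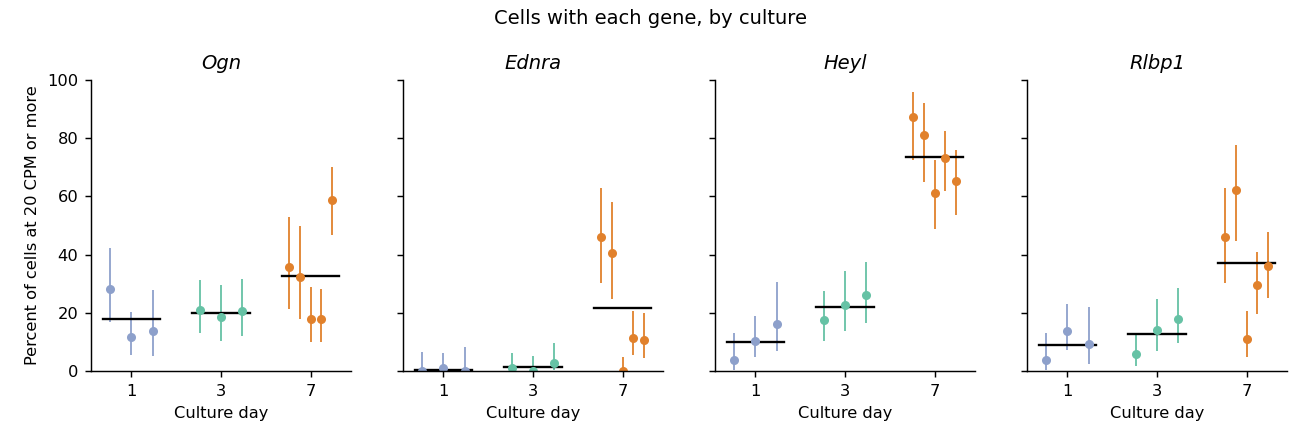
Percent of retained cells with each gene at 20 CPM or more (vertical axis) by culture day; each point is a culture with its exact 95% interval, and black lines are means over cultures. Heyl shows no overlap between day 7 (61.1% to 87.2%) and earlier days, whereas Ogn and Rlbp1 overlap and Ednra is high in day 7 cultures 1 and 2.

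Within the state, 93.4% of the cells had Heyl, 59.2% (90 cells) Rlbp1, 55.9% (85 cells) Ogn and 31.6% (48 cells) Ednra. The most frequent combinations were Heyl with Rlbp1 alone (41 cells), Ogn with Heyl alone (36 cells) and Ogn, Heyl and Rlbp1 together (21 cells). All 4 genes were found in 10 cells and 3 of them in 41, and the remaining state cells had 2. Of the 95 cells with exactly 1 gene, 72 had Heyl. Most state cells were thus Heyl cells with 1 further gene. Per kilobase of merged exon, the mean level in summed state cells was 64.1 ± 20.7 CPM per kb for Heyl, 43.1 ± 38.2 for Ogn, 24.3 ± 8.14 for Rlbp1 and 6.57 ± 6.52 for Ednra (SD, n = 5 cultures). The spreads of Heyl and Ogn overlapped, as did those of Ogn and Rlbp1. These levels describe the choice of the cells.

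The cells near the threshold were few. The second-highest of the 4 genes, which decides membership, had a median of 110.6 CPM in state cells. The state cells nearest the threshold had 20.9 and 24.4 CPM for that gene, and the nearest cells outside had 16.6 and 16.5 CPM. It lay between 10 and 20 CPM in 9 cells and between 20 and 40 CPM in 12.

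The summed state cells of each culture show how unequal the genes were. Ogn was at 59.5, 81.1, 81.5, 46.96 and 283.8 CPM in cultures 1 to 5. Heyl was at 317.3, 422.02, 201.4, 446.5 and 252.1 CPM, and Rlbp1 at 68.3, 106.9, 39.4, 75.4 and 68.7 CPM. Ednra was at 55.7, 87.95, 0, 24.2 and 11.99 CPM. Culture 5 was high in Ogn, and culture 3 had no Ednra read in its 14 state cells.

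Each gene was also read in cells chosen by the other 3 genes, so that its own level did not decide the side. Heyl reached 20 CPM in 51 of 61 cells with 2 or more of the other genes (83.6%) and in 72 cells, or 57.1%, of those with none of them. Its CPM was higher in the former in 5 of 5 cultures, with a fitted log2 fold change of 1.23 (SE 0.24). By share of cells, culture 3 went the other way, with 1 of 2 cells against 31 of 53. Ogn was at 20 CPM in 40 such cells (37.4%) against 12 of 66 (18.2%), with a higher CPM in 5 of 5 cultures. The CPM of Ogn in culture 3 was 35.9 against 30.4.

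Ednra reached the threshold in 30 such cells (22.4%) against 2 of 56 (3.57%), and had a higher CPM in 4 of 5 cultures, the exception being culture 3 without a read on either side. Rlbp1 was at 20 CPM in 42 cells (40.4%) against 9 of 63 (14.3%), with a higher CPM in 4 of 5 cultures. In culture 2 it was at 100.6 against 106.4 CPM. The 4 genes were proposed together from these same cells, so these values are a description with no test. Cells with Heyl and cells without it had Rlbp1 at 20 CPM in 38.8% and 18.4% of cases, and Ogn in 35.5% and 24.1%, pooled over cultures that also differ in these genes.

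**Figure D3:**
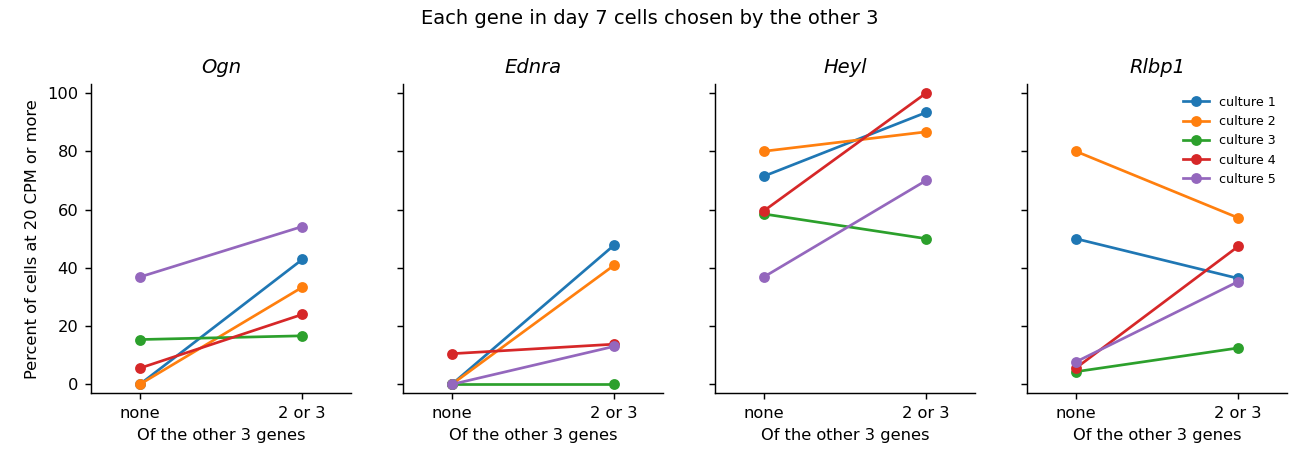
Percent of day 7 cells with a gene at 20 CPM or more (vertical axis), among cells with none or with 2 or 3 of the other 3 genes; each line is a culture. Along the lines Ogn is higher in all 5 cultures and Ednra in 4 of 5, whereas Heyl is lower in culture 3 and Rlbp1 in cultures 1 and 2.

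The state cells carried epithelial transcripts. All of them had a read of Epcam or Cdh1, as did 95 of 95 cells with 1 gene and 53 of 54 with none. The GER and tectorial membrane genes, which include Tecta and Tectb, summed to 3893 to 5580 CPM in state cells of the 5 cultures and to 501.2 to 4184 CPM in rest cells. The defining markers of endothelial cells were at or near 0 in state cells, with 5 of 8 at 0 reads (Pecam1, Kdr, Tie1, Cldn5 and Emcn) and a sum of at most 3.15 CPM. Of 7 melanocyte genes, 4 were at 0 reads (Tyr, Dct, Tyrp1 and Mlana), with a sum of 1.81 to 8.39 CPM, and 10 immune genes summed to at most 8.51 CPM.

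The 15 hair cell genes summed to 44.6 to 91.4 CPM in state cells and 0 to 112.1 CPM in rest cells. The 10 glial genes, of which Foxd3 and Gfap were among those at 0 reads, had a sum of 121.1 to 473.2 CPM against 102.2 to 848.5 CPM. Of 15 mesenchymal and pericyte genes, Col3a1, Pou3f4, Rgs5 and Acta2 were at 0 reads and 10 were under 1 CPM in state cells. The sum of this list was 562.6 to 2821 CPM in state cells and 34.7 to 3842 CPM in rest cells. The ranges of both sides overlapped in every one of these lists. The part of other cell types in the results was not tested.

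No gene outside the 4 passed the test between state and rest cells. Counts were summed per side and culture and compared within cultures with edgeR's quasi-likelihood test, and a gene was called at a Benjamini-Hochberg adjusted p under 0.05. Of 12296 genes tested beside the chosen ones, 0 were called (0%), and 4.09% had an unadjusted p under 0.05. DESeq2 called 14 (0.114%) and limma 10 (0.0813%). In cultures 3 to 5 alone edgeR called 0 of 12827 genes (0%), and 2.39% had an unadjusted p under 0.05. Against all other cells of the 5 cultures it called 0 of 13248 (0%), with 5.70% at an unadjusted p under 0.05. In simulated counts of the 5-culture comparison, changes were put into the more highly expressed genes only. Of these, 15% with a log2 change of 2 and 90% with 4 were recovered. Most changes of the smaller size were thus not detectable in the simulated sums, and recovery among low genes was not tried. The simulated spread followed the trend over expression level and not each gene's own spread. Recovery among genes with a larger spread was therefore not tried either. In cultures 3 to 5, and against all other cells, even the genes that chose the cells were not called, so the counts of 0 there say little.

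The fitted values leaned one way in the 5-culture comparison. Over all genes tested the median log2 fold change was 0.51 and 80.5% were above 0. Without culture 2 the median was 0.20, with 63.1% above 0. In cultures 3 to 5 the median was 0.09 with 55.9% above 0, and against all other cells it was 0.06 with 55.1% above 0. Values of single genes are read against these medians. CPM of summed cells is scaled with TMM from here on.

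DESeq2 and limma both called 5 genes, Ghr, Gxylt2, Serpinb5, Aqp4 and Ankrd45, all higher in state cells. They were chosen after their values were seen, because they passed 2 of the 3 tools. Aqp4, which encodes the water channel aquaporin-4, was at 41.2, 31.96, 5.35, 8.93 and 9.88 CPM in state cells of cultures 1 to 5, and was read among rest cells in culture 3 only, at 3.91 CPM. Serpinb5, which encodes the serpin maspin, was at 27.02, 25.2, 10.1, 6.39 and 15.5 CPM, and among rest cells at 3.18 CPM in culture 3 and at 0 elsewhere. The growth hormone receptor gene Ghr was at 13.2, 1.21, 7.04, 6.26 and 11.7 CPM in state cells and at most at 0.056 CPM in rest cells. Since rest cells had almost no reads of these genes, they passed the filter on low counts through the state side, and the rest sums of cultures 1 and 2 hold only 2 cells and 1 cell. Their direction in those cultures therefore carries little weight. Against all other cells the fitted log2 changes were 2.79 for Ghr, 2.34 for Aqp4, 2.25 for Serpinb5, 1.84 for Ankrd45 and 1.43 for Gxylt2, none called by edgeR (adjusted p 0.805 to 0.874). Gxylt2 was there lower in state cells of culture 3, at 2.86 against 4.43 CPM, and its fitted value was 0.77 in cultures 3 to 5.

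These genes were low and patchy. A read of Aqp4 was found in 23.7% of state cells and 1.85% of rest cells, of Serpinb5 in 24.3% and 3.70%, of Ghr in 18.4% and 1.85%, of Gxylt2 in 23.03% and 1.85%, and of Ankrd45 in 30.9% and 3.70%. Cells with exactly 1 of the 4 genes also had such reads. For Ghr it was 14.3%, 25%, 25%, 17.2% and 13.3% of them in cultures 1 to 5. Among state cells it was 26.7%, 10.7%, 21.4%, 12.5% and 20.8%. Ankrd45 had 14.3%, 50%, 16.7%, 37.9% and 40%, against 40%, 25%, 14.3%, 40.6% and 27.1%. Gxylt2 also differed in order between cultures. Serpinb5 was less frequent there in every culture, and Aqp4 in all but culture 2. The edgeR adjusted p between state and rest cells was 0.0951 for Ghr and Gxylt2 and 0.140 for Aqp4, Serpinb5 and Ankrd45. In this comparison 8.37% of all genes were higher in state cells in every culture.

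Clu, which encodes the secreted chaperone clusterin, was the most abundant gene called by limma. It was at 13777, 18254, 5057, 3813 and 12107 CPM in state cells of cultures 1 to 5 and at 4038, 69.96, 4956, 1933 and 8179 CPM in rest cells. State cells were higher in 5 of 5 cultures, by little in culture 3. The edgeR log2 fold change was 1.58 (SE 0.51, adjusted p 0.624), and it was 0.54 in cultures 3 to 5.

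The Notch pathway list was compared because Hey family genes are Notch targets. Heyl itself is not on the list. This list and those below were chosen with earlier results of these data known. Counts of their members, also those with an unadjusted p under 0.05, are descriptions and no test of a list. Of 26 Notch pathway genes 21 were tested. In 5 cultures 18 had a fitted value above 0 (median 1.07), against 80.5% of all genes. In cultures 3 to 5 it was 16 of 21 (median 0.40), against 55.9% of all genes. Against all other cells it was 19 of 21 (median 0.43), where 55.1% of all genes were above 0. Against all other cells of cultures 3 to 5 it was 13 of 21 (median 0.15), where 46.5% of all genes were above 0. None was called by edgeR. The receptor Notch1 was at 236.8, 312.7, 205.02, 248.6 and 276.2 CPM in state cells of cultures 1 to 5 and at 107.7, 136.1, 148.2, 140.6 and 103.5 CPM in all other cells. All 5 state values lay above all 5 values of the other cells. Its fitted log2 change against all other cells was 1.01 with SE 0.16 (adjusted p 0.735 by edgeR). Against rest cells it was 2.33 (SE 0.88, adjusted p 0.919 by edgeR), and DESeq2 called it there. The rest cells of cultures 1 and 2 held only 47 reads and 1 read of Notch1. In cultures 3 to 5 the value against rest cells was 1.48. Against all other cells, 4.97% of genes were higher in every culture.

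The ligand Jag1 and the Notch target Hey1 were also higher in 5 of 5 cultures against all other cells, by less. Hey1 was at 384.8, 485.3, 230.1, 303.1 and 389.6 CPM in state cells and at 324.8, 393.5, 193.3, 203.8 and 388.5 CPM in the others, with a fitted log2 change of 0.28 with SE 0.11 (adjusted p 0.847 by edgeR). In culture 5 the sides were nearly level, and the 2 ranges overlapped. The target Hes1 was higher in 2 of 5 cultures. Hes5, another target, was at 14.8, 8.63, 1.24, 6.48 and 4.69 CPM in state cells, higher than in the others in 4 of 5 cultures, with 23.04 CPM in the others of culture 5. The fitted values of ligand, receptor and targets thus differed in size.

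Genes of the GER and the tectorial membrane were mostly higher in state cells, none of them called by edgeR. Of 15 genes 12 were tested, and all 12 had fitted values above 0 in 5 cultures (median 1.10), against 80.5% of all genes. In cultures 3 to 5 all 12 were above 0 as well (median 0.43), against 55.9% of all genes. Against all other cells it was 12 of 13 (median 0.44), where 55.1% of all genes were above 0. Of these 13, 7 had an unadjusted p under 0.05 and were higher, against 2.99% of all genes. In cultures 3 to 5 against all other cells it was 10 of 12 (median 0.38), where 46.5% of all genes were above 0. These counts describe a list chosen with earlier results known and do not test it. The list holds several type IX and XI collagen genes, which are also in the list of collagens and laminins.

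Tecta, which encodes the tectorial membrane protein alpha-tectorin, was at 1723, 1433, 1240, 1719 and 2451 CPM in state cells of cultures 1 to 5 and at 960.04, 886.5, 1102, 1315 and 2245 CPM in all other cells. It was higher in 5 of 5 cultures with overlapping ranges, and its fitted log2 change was 0.44 with SE 0.13 (adjusted p 0.805 by edgeR). Col9a3, which encodes a chain of type IX collagen, was at 306.6, 471.9, 192.8, 141.7 and 278.9 CPM in state cells and at 147.2, 111.5, 118.2, 91.6 and 115.7 CPM in the others. Its fitted log2 change was 1.14 with SE 0.22 (adjusted p 0.735 by edgeR), and only the state value of culture 4 fell within the range of the others. Tectb, which encodes beta-tectorin, was at 313.5, 534.2, 1750, 394.8 and 1374 CPM in state cells and at 550.9, 551.8, 574.9, 432.96 and 1387 CPM in the others. It was higher in culture 3 only, and its fitted log2 change was 0.10 (SE 0.30). Otoa, which encodes otoancorin, was also higher in 1 of 5 cultures.

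Among collagens and laminins, 19 of 27 genes tested were above 0 against all other cells (median 0.44), where 55.1% of all genes were. Of these 27, 8 had an unadjusted p under 0.05 and were higher, against 2.99% of all genes. Against rest cells 20 of 25 were above 0 (median 0.86), where 80.5% of all genes were above 0. Against all other cells of cultures 3 to 5 it was 19 of 29 (median 0.27), where 46.5% of all genes were above 0. Col2a1, the gene of type II collagen, was at 698.04, 697.5, 936.1, 540.03 and 873.8 CPM in state cells and at 560.6, 537.6, 736.5, 324.9 and 631.97 CPM in the others. It was higher in every culture.

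Supporting cell genes were mixed. Of 13 tested against all other cells 8 were above 0 (median 0.29), where 55.1% of all genes were. In cultures 3 to 5 against rest cells it was 5 of 12 (median -0.25), where 55.9% of all genes were above 0. Gjb2, which encodes the gap junction protein connexin 26, was at 1058, 1554, 452.4, 596.2 and 716.5 CPM in state cells and at 570.5, 660.9, 330.1, 309.2 and 581.04 CPM in the others. It was higher in 5 of 5 cultures, with a fitted log2 change of 0.77 with SE 0.15 (adjusted p 0.735 by edgeR). Lgr5, a Wnt co-receptor gene found in cochlear progenitor-like supporting cells, was at 22.9, 21.7, 32.9, 5.71 and 17.98 CPM in state cells and at 30.2, 48.97, 40.9, 22.9 and 41.1 CPM in the others. State cells were lower in 5 of 5 cultures with overlapping ranges, and the fitted log2 change was -1.01 with SE 0.33 (adjusted p 0.805 by edgeR). Sox2 had a fitted value of -0.13 against all other cells.

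**Figure D4:**
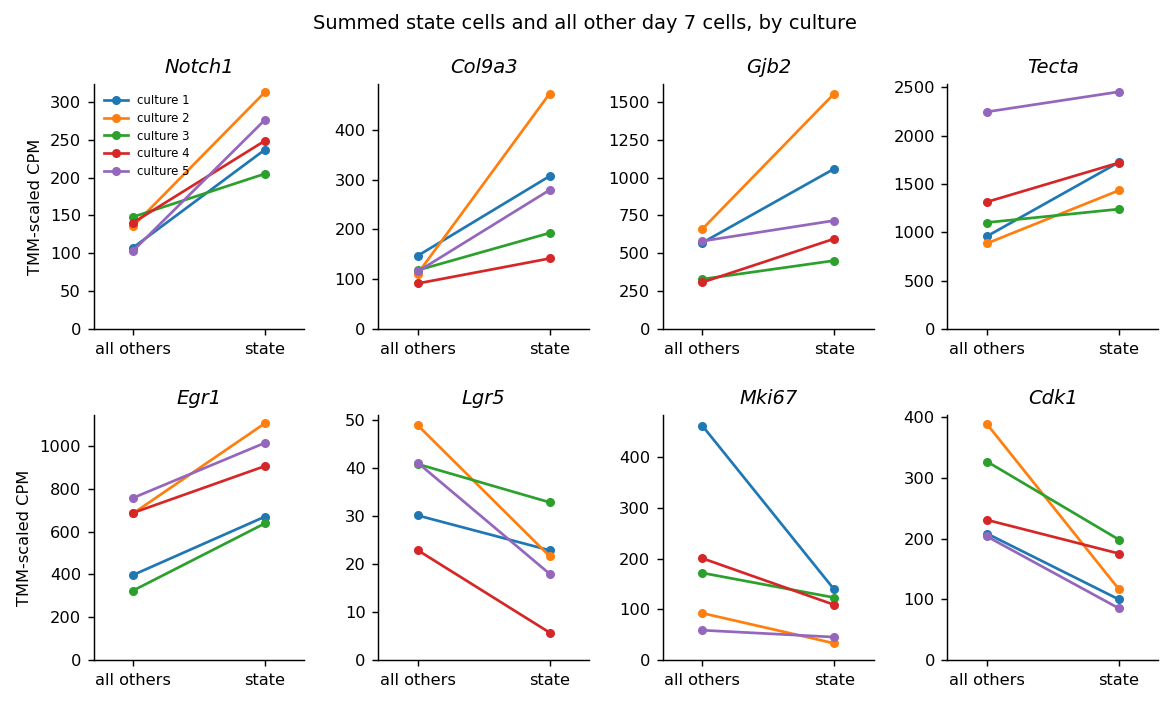
TMM-scaled CPM (linear vertical axes from 0) of 8 genes in summed state cells and all other day 7 cells; each line is a culture. Notch1, Col9a3, Gjb2, Tecta and Egr1 are higher and Lgr5, Mki67 and Cdk1 lower in state cells in each of the 5 cultures, and none was called by edgeR.

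Genes of mitosis had lower fitted values in state cells than in all other cells of their culture. Of 34 genes of G2 and mitosis, 34 were below 0 (median -0.89), against 44.9% of all genes, and 24 had an unadjusted p under 0.05 and were lower, against 2.71% of all genes. In cultures 3 to 5 the counts were 32 of 34 (median -0.40), against 53.5% of all genes. None of the 34 was called by edgeR. This list too was chosen with earlier results known, so its counts are descriptions and no test. Cdk1, the mitotic cyclin-dependent kinase gene, was at 99.8, 116.8, 198.3, 175.3 and 85.05 CPM in state cells and at 208.2, 388.6, 326.9, 230.7 and 203.4 CPM in the others. All 5 values of state cells lay below all 5 of the others. Mki67, which encodes the proliferation marker Ki-67, was at 139.1, 32.8, 123.01, 108.8 and 45.01 CPM against 462.2, 92.2, 171.6, 200.5 and 58.5 CPM, lower in every culture with overlapping ranges.

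The comparison with cells with none of the genes had another baseline. Its median over all genes was 0.51, and that against all other cells was 0.06. Against cells with none of the genes, 22 of 34 mitotic genes were below 0 (median -0.25), where 80.5% of all genes were above 0. In cultures 3 to 5 it was 20 of 34 (median -0.09), where 55.9% of all genes were above 0. A cell was counted as cycling with 3 or more of Tpx2, Ccnb2, Birc5, Cdk1, Top2a and Mki67 at 20 CPM. Pooled over cultures, 59 state cells (38.8%), 68 of 95 cells with 1 gene (71.6%) and 33 of 54 rest cells (61.1%) were cycling, and cultures contribute unequally to these pools. In cultures 1 to 5, cycling cells were 57.1%, 75%, 83.3%, 82.8% and 26.7% of the cells with 1 gene, and 100%, 0%, 77.3%, 70.6% and 16.7% of rest cells, so that the order of the sides differed between cultures.

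Within cultures, cycling cells made up 30%, 25%, 78.6%, 59.4% and 27.1% of state cells and 66.7%, 66.7%, 81.03%, 78.3% and 22.2% of all other cells in cultures 1 to 5. State cells were lower in 4 of 5 cultures by a mean difference of -18.96 ± 20.4 percentage points (SD, n = 5), with an exact two-sided permutation p of 0.188 (0.656 adjusted over 7 measures). A p under 0.05 is out of reach with 5 pairs. The cultures with the lowest state share, 3 and 4, had the highest cycling share in state cells.

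Of the other cell measures against all other cells, the share of cells with an EGFP read was 91.8% ± 7.22 in state cells and 81.2% ± 14.6 in the others (n = 5, exact permutation p 0.125, adjusted 0.656). Median reads per cell were 885692 ± 70412 and 915180 ± 87443 (exact permutation p 0.438, adjusted 0.766, n = 5). Genes per cell after thinning to 200000 reads were 5742 ± 431.3 and 6012 ± 882 (exact permutation p 0.312, adjusted 0.729, n = 5). The EGFP share was higher in state cells in 4 of 5 cultures, and the number of genes was lower in 4 of 5.

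Immediate early genes, which respond quickly to stimulation, were above 0 against all other cells in 14 of 18 cases (median 0.51). Of all genes 55.1% were above 0. With an unadjusted p under 0.05, 7 of the 18 were higher, against 2.99% of all genes. Against all other cells of cultures 3 to 5 it was 11 of 18 above 0 (median 0.33), where 46.5% of all genes were. There 3 of the 18 were higher and 1 lower with an unadjusted p under 0.05. Egr1, a zinc finger gene of this class, was at 669.9, 1107, 638.5, 906.4 and 1015 CPM in state cells and at 397.3, 685.4, 324.3, 687.8 and 757.8 CPM in the others. It was higher in 5 of 5 cultures, and the ranges overlapped. Its fitted log2 change was 0.65 with SE 0.12 (adjusted p 0.735 by edgeR).

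The pathways of the other chosen genes were mixed. Of 6 endothelin pathway genes tested beside Ednra, 3 were above 0 against all other cells (median 0.08), where 55.1% of all genes were. Of 18 retinoid genes 13 were above 0 (median 0.29), against 55.1% of all genes, and none had an unadjusted p under 0.05. The retinoic acid synthesis gene Aldh1a3 was lower in 5 of 5 cultures with a fitted value of -0.17, and Stra6, which encodes the retinol transporter, had -0.04. Of 14 small leucine-rich proteoglycan genes listed, 4 were tested beside Ogn. All 4 were above 0 (median 1.02), against 55.1% of all genes, but 0 were higher in every culture. Against all other cells of cultures 3 to 5 it was 5 of 5 (median 0.35), where 46.5% of all genes were above 0. Dcn, which encodes decorin, was at 522.4, 855.2, 208.9, 221.2 and 1072 CPM in state cells and at 321.3, 345.1, 207.002, 158.9 and 1115 CPM in the others, higher in 4 of 5 cultures.

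**Figure D5:**
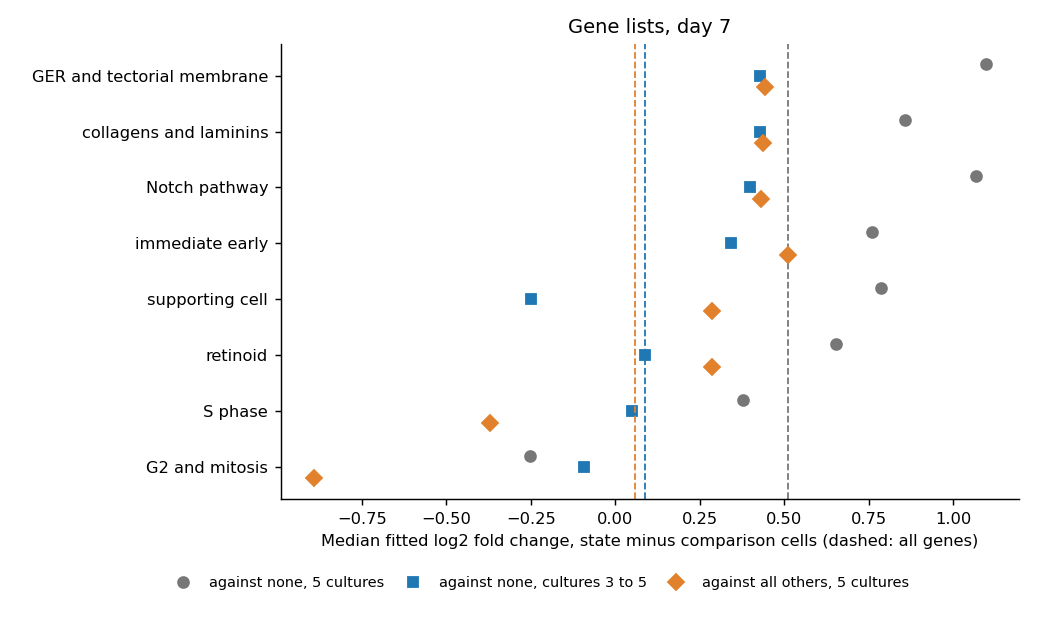
Median fitted log2 fold change (horizontal axis) of 8 gene lists in day 7 state cells against cells with none of the 4 genes (5 cultures, and cultures 3 to 5) and against all other cells; dashed lines are the medians of all genes, at 0.51, 0.09 and 0.06. GER and tectorial membrane genes lie above the dashed line in each comparison and G2 and mitosis genes below it.

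Cells with exactly 1 of the 4 genes were compared with the same rest cells. Of 11755 genes beside the 4, edgeR called 0 (0%), with 1.66% at an unadjusted p under 0.05. Over all genes the median log2 fold change here was 0.45 with 77.7% above 0. In cultures 3 to 5 it was 0.07 with 55% above 0. Notch1 had a fitted value of 1.57 in the 5 cultures here and 2.33 in the state comparison, and Clu 1.02 and 1.58. Both comparisons share their rest cells, including the 3 of cultures 1 and 2.

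Day 3 cells chosen by the same rule were separate cells that the choice of day 7 cells did not use. Their 17 state cells numbered 4, 5 and 8 in cultures 1 to 3, against 50, 36 and 32 rest cells. EdgeR called 0 of 12882 genes (0%), with 3.70% at an unadjusted p under 0.05; DESeq2 called 61 of the 11882 genes to which it gave an adjusted p (0.513%), and limma 0 of 12882 (0%). The genes that chose the cells were not called by edgeR there. The median log2 fold change over all genes was -0.22. Of 34 genes of G2 and mitosis 33 were below 0 (median -0.73), against 64.1% of all genes, and 9 had an unadjusted p under 0.05 and were lower, against 2.53% of all genes. Mki67 had a fitted log2 change of -1.04 with SE 0.31 (adjusted p 0.996 by edgeR) and was lower in 3 of 3 cultures. The share of cycling cells was close on both sides, at 9 of 17 state cells (52.9%) and 69 rest cells (58.5%).

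Of the GER and tectorial membrane genes 9 of 13 were above 0 on day 3 (median 0.38), against 35.9% of all genes. But with an unadjusted p under 0.05 there were 0 higher and 2 lower. One of the latter was Epyc, a proteoglycan gene, lower in 3 of 3 cultures. It had 0 reads in the 4 and 8 state cells of cultures 1 and 3. In those cultures only 18% and 6.25% of rest cells had a read of it. In culture 2 a read was found in 40% of 5 state cells and 19.4% of 36 rest cells, so its direction carries little weight. Of 4 small leucine-rich proteoglycan genes 0 were above 0 (median -2.25), against 35.9% of all genes. Of the Notch pathway 11 of 20 were above 0 (median 0.31), against 35.9% of all genes. Notch1 had a fitted log2 change of 0.77 with SE 0.35 (adjusted p 0.996 by edgeR) and was higher in 2 of 3 cultures, and Gjb2 had 0.69 (SE 0.28, adjusted p 0.996) and was higher in 3 of 3. Day 1 held 0, 5 and 3 state cells in its cultures and was not fitted.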

How the data were processed

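The tables deposited by the authors hold expected counts, that is, reads estimated for each gene of a cell without normalisation, and 10.6% of the values above 0 were not whole. STAR 2.5.3a and RSEM 1.3.0 with builds mm10 and GRCm38 are named in the submitters' processing notes. Counts were rounded. Cells with at least 50000 gene reads, 1500 genes and at most 20% mitochondrial reads were retained, which kept 711 of 768 (182, 228 and 301 on days 1, 3 and 7), among them 152 state cells. Retained day 7 cells had 58407 to 1845130 reads (median 876145). No doublet caller was run, since cells were picked singly. No pair of cells had identical counts.

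Counts were summed per side and culture (201525 to 45635913 reads) and fitted with edgeR 4.0.16 in R 4.3.3 (filterByExpr, TMM, culture as block, quasi-likelihood test). Both sides of a pair come from 1 culture, so the pairing is in the design. DESeq2 1.42.0 and limma 3.58.1 (log2 of mean CPM per cell plus 1) were alternatives, with other thresholds, sides and depths. The test was tried on simulated counts. An unadjusted p under 0.05 was found for 503 genes (5 cultures), 307 (cultures 3 to 5), 755 (all other cells), 195 (exactly 1 gene) and 477 (day 3). The smallest p of the permutation test over 5 pairs is 0.0625. The 4 genes and the gene lists were chosen with earlier results of these data known, and chose the cells, so they get no test. Genes were to be named from called genes with 1 direction in all cultures; none was called, so genes named outside the lists were chosen after their values were seen, as were the members given for each list. The deposited tables were 2; day 7 culture 5 is in another table than cultures 1 to 4, so leaving it out gives the values within 1 table.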

Additional observations from a re-analysis of the deposited data

Results flagged for a closer look

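Of 45 groups of 5 day 7 culture values looked at, 4 had a culture far from the others; chance gives about 1 in 20. The median mitochondrial share of state cells was 6.41% in culture 5, with the next culture at 4.49%. The share of cycling cells among all other cells was 22.2% in culture 5, with the next at 66.7%. Among all other cells, the share with an EGFP read was 55.6% in culture 2, with the next at 84.8%. Gjb6, which encodes connexin 30, was at 246.4 CPM in all other cells of culture 5, with the next culture at 46.5 CPM, whereas in state cells that culture was at 122.2 CPM. Culture 5 is also the only day 7 culture in its deposited table.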

How the results depend on the processing

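Counts of called genes leave out the 4 chosen genes. Between state and rest cells on day 7 edgeR called 0, and 0 without the replicate block, but 14 with DESeq2, 10 with limma and 22 with no filter on low counts; leaving out 1 culture gave 0 to 1 (1 without culture 1, 3 or 5). On day 3 it called 0, and 0 without the block, 61 with DESeq2, 2 with no filter, 1 with markers at 10 CPM, 1 at 50 CPM and 0 to 2 without 1 culture; no day 3 cell had 3 genes, so that setting was not run. For 1 gene against none it called 0, and 0 without the block, 24 with no filter and 0 to 1 without 1 culture. The mean state share of 55.4% became 20.5% with 3 or more genes, and 50.0% to 64.4% without 1 culture. The difference in cycling share against rest cells was -8.90 percentage points, 0.167 in cultures 3 to 5, and -17.4 to 6.38 without 1 culture, changing sign without culture 1. The cause was not tested. The median log2 change over all day 7 genes, 0.51 with 80.5% above 0, was 0.36 with RLE scaling, 0.16 without the replicate block (60.7% above 0), 0.30 with DESeq2 (69.2%), 0.99 with limma (90.8%), 0.20 without culture 2 (63.1%) and -0.08 with the rule without Heyl (44.5%). The restrictions to cultures 3 to 5 and the rules without 1 of the 4 genes were chosen after seeing the data.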
